A study of Mus musculus with 12 samples.

Results

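The serum amyloid A, orosomucoid and related acute phase genes were 10 genes chosen by name: Saa1, Saa2, Saa3, Saa4, Orm1, Orm2, Hp, Hpx, Lcn2 and Apcs. Each of the 10 had 1 probe set among the 15780 named probe sets of the deposited table. All 10 also passed a filter on dim genes (a mean log2 level of at least 5.57) that left 9496 genes for testing. RNA came from primary hepatocytes, liver parenchymal cells freshly taken from the animal, of male C57BL/6J mice aged 8 weeks. The mice were either wild type or carried a knockout of Cnot6l, which encodes a catalytic subunit of the CCR4-NOT complex that shortens mRNA poly(A) tails. Every cell preparation was split into an input, from which total RNA was taken, and an immunoprecipitate (IP) made with an antibody to CNOT6L, so that the IP of knockout cells served as the negative control. The 4 groups, input and IP of either genotype, held 3 Affymetrix mouse genome arrays each, numbered 1 to 3 in the sample titles as biological replicates. Nothing further says that the numbers stand for separate animals, so p-values measure the spread between these samples.

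Acute phase proteins are made by hepatocytes and released into blood when cytokines of the interleukin-6 and interleukin-1 families signal injury or infection. Interleukin-6 acts through STAT3 and interleukin-1 through NF-κB, and C/EBP factors act on many of the same promoters. The products studied here bind lipid (serum amyloid A), small drugs and other basic ligands (orosomucoid), free haemoglobin (haptoglobin, Hp), haem (hemopexin, Hpx), bacterial siderophores (lipocalin 2, Lcn2) or amyloid fibrils and microbial surfaces (serum amyloid P component, Apcs).

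The arrays had medians of 6.31 to 6.45 on the log2 scale and highest values of 14.8 to 15.1, which limits what can be read at the top of the scale, where Hp, Hpx and Lcn2 lay. The 24 probe sets for poly(A) control transcripts, which are added to RNA before labelling, read 4.47 to 5.99 log2 units higher in each IP than in the input of its own preparation. Values were less spread over an array in IPs (SD 2.19 to 2.42) than in inputs (SD 2.53 to 2.61). Cnot6l itself was at 9.02 ± 0.54 (SD, n = 3) in wild-type inputs and 9.23 ± 0.11 (SD, n = 3) in knockout inputs, so its signal was not lower in the libraries labelled knockout (limma adjusted p = 1.0). Where its probes lie relative to the deleted part is not known here, so this checks nothing about the labels, and "wild-type" and "knockout" below are the labels' words. Of the hepatocyte markers, 7 of 8 were on the array and all 7 passed the filter, with a summed level of 15.3 to 16.3 over the 12 arrays. Of 10 Kupffer cell and macrophage markers 2 passed, Cd68 (10.30 to 12.27) and Csf1r (5.38 to 6.23), and the other 8, among them Clec4f and Adgre1, did not. Of 8 neutrophil markers 2 passed, while S100a8 lay between 3.56 and 5.36, below the filter.

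The serum amyloid A genes are a cluster of lipoprotein-bound proteins: Saa1 and Saa2 are the main acute phase forms of liver, Saa3 is made in many tissues, including macrophages and fat, and Saa4 is the constitutive form. The upstream sequences are shown because Saa1 and Saa2 are close copies while Saa3, which had another pattern over the arrays, is not. They are the 250 bases before the annotated start of each gene in RefSeq (build GRCm38.p6), written 5′ to 3′ on the gene's own strand. The windows are chr7:46742981-46743230 (minus strand) for Saa1, chr7:46751583-46751832 (plus strand) for Saa2 and chr7:46715677-46715926 (minus strand) for Saa3. Capitals mark a match to the C/EBP motif TTNNGCAA or to the NF-κB consensus, on either strand.
Saa1: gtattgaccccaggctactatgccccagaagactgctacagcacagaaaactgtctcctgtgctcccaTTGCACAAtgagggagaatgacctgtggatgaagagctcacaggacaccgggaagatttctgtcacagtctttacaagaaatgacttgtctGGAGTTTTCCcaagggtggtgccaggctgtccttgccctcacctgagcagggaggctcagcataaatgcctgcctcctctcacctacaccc
Saa2: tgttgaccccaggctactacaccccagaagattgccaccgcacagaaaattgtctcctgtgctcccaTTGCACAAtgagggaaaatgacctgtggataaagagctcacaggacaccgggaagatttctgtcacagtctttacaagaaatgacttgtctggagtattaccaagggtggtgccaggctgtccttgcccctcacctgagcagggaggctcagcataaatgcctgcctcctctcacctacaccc
Saa3: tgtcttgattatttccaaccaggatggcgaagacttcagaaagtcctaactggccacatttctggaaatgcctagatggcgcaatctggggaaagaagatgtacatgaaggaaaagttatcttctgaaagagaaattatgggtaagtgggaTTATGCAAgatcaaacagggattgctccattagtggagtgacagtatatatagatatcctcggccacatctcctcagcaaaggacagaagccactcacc
The windows of Saa1 and Saa2 were identical at 238 of 251 aligned positions (94.8%), and those of Saa1 and Saa3 at 52.2%, close to the 49.5% of Saa1 and Saa4. Members of other families were at the same level against Saa1: Orm2 at 54.5%, Lcn2 at 53.5%, Apcs at 50.9% and Hpx at 49.7%. Each of the 3 printed windows held 1 match to the C/EBP motif, in Saa1 from 182 to 175 bases before the start, in Saa2 from 183 to 176 and in Saa3 from 99 to 92. The Saa1 window also held a match to the NF-κB consensus from 91 to 82 bases before the start, and the Saa2 window held none. Over the 8 members with a RefSeq promoter entry, 7 windows held the C/EBP motif, against 9.56% of 32851 promoter windows of the same length. The NF-κB consensus was in 2 of the 8 (Saa1 and Lcn2), against 9.55%, and the STAT motif TTCNNNGAA in 1 (Apcs), against 7.02%. No 2 matches overlapped in a printed window. A match is a run of letters, not a shown binding site, and Orm1 and Hp had no entry.

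The level of Saa1 in wild-type inputs 1 to 3 was 12.54, 13.34 and 12.75, and in wild-type IPs 12.02, 12.63 and 11.53. In knockout inputs it was 12.41, 12.58 and 12.39, and in knockout IPs 12.31, 11.66 and 11.33. Inputs were higher than the IP of the same number in all 6 preparations, and the 3 knockout IPs lay below the 3 knockout inputs without overlap, whereas the wild-type groups overlapped. The group means ran from 12.87 ± 0.41 in wild-type inputs through 12.46 ± 0.10 in knockout inputs and 12.06 ± 0.55 in wild-type IPs to 11.77 ± 0.49 in knockout IPs (SD, n = 3 each). No pair of neighbours in this order differed by as much as both groups' SDs together, and 1 pair, the input groups, differed by more than the larger SD. Because Saa1 and Saa2 are near-identical, and the probe sequences are not used here, signal from one may be read by the other's probe set.

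Saa2 was at 10.22, 11.99 and 9.57 in wild-type inputs and at 9.77, 10.93 and 9.35 in wild-type IPs. It was at 10.19, 10.15 and 8.90 in knockout inputs and at 10.46, 9.93 and 8.95 in knockout IPs. Replicate 3 was lowest in all 4 groups, and wild-type input 2 was the highest array of the 12. The groups all overlapped, with means of 10.59 ± 1.25, 10.01 ± 0.82, 9.74 ± 0.73 and 9.78 ± 0.76 (SD, n = 3 each, in the order just given). The largest difference, 0.85 between the inputs, was below the SD of wild-type inputs and slightly above the SDs of the other groups.

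Saa3 read 9.81, 11.04 and 12.36 in wild-type inputs, and 9.52, 10.96 and 12.36 in wild-type IPs. In the knockout it read 9.44, 10.05 and 11.89 in inputs and 9.51, 10.09 and 12.11 in IPs. All 4 arrays of number 1 were at or below 9.81, the 4 of number 2 lay between 10.05 and 11.04, and the 4 of number 3 were at or above 11.89, so the numbers separated fully while the groups overlapped. The inputs of number 3 averaged 12.13 and those of number 1 averaged 9.63, a difference of 2.50 log2 units or 5.65-fold. Of 6 stellate cell markers 3 passed the filter. Of these Dcn moved with Saa3, at 6.36, 7.42 and 9.60 in the inputs of numbers 1, 2 and 3. Des, at 5.84, 5.76 and 5.88, and Acta2, at 5.77, 5.17 and 6.04, were lowest in number 2. The summed level of all 6 ran from 8.06 to 9.88 in wild-type inputs, 8.21 to 9.33 in wild-type IPs, 7.83 to 10.01 in knockout inputs and 8.00 to 9.55 in knockout IPs. Other passing markers highest in the inputs of number 3 were Krt19 (6.40, 6.35 and 7.85) and Sox9 (6.99, 7.83 and 8.22) of cholangiocytes. So were Stab2 (5.43, 6.39 and 6.67) and Kdr (6.05, 5.95 and 6.96) of sinusoidal endothelium. Cd68, Csf1r, Elane and Cxcr2 were highest in number 1 or 2. Of the hepatocyte markers Alb, Asgr1, Tat, Cyp2e1 and Tdo2 were lowest in number 3, and Apoa1 and Ttr were not. The part of any of these markers in the Saa3 result was not tested. Saa4, the dimmest member, ranged from 7.19 to 9.44, and in each preparation its input was above its IP.

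**Figure D1:**
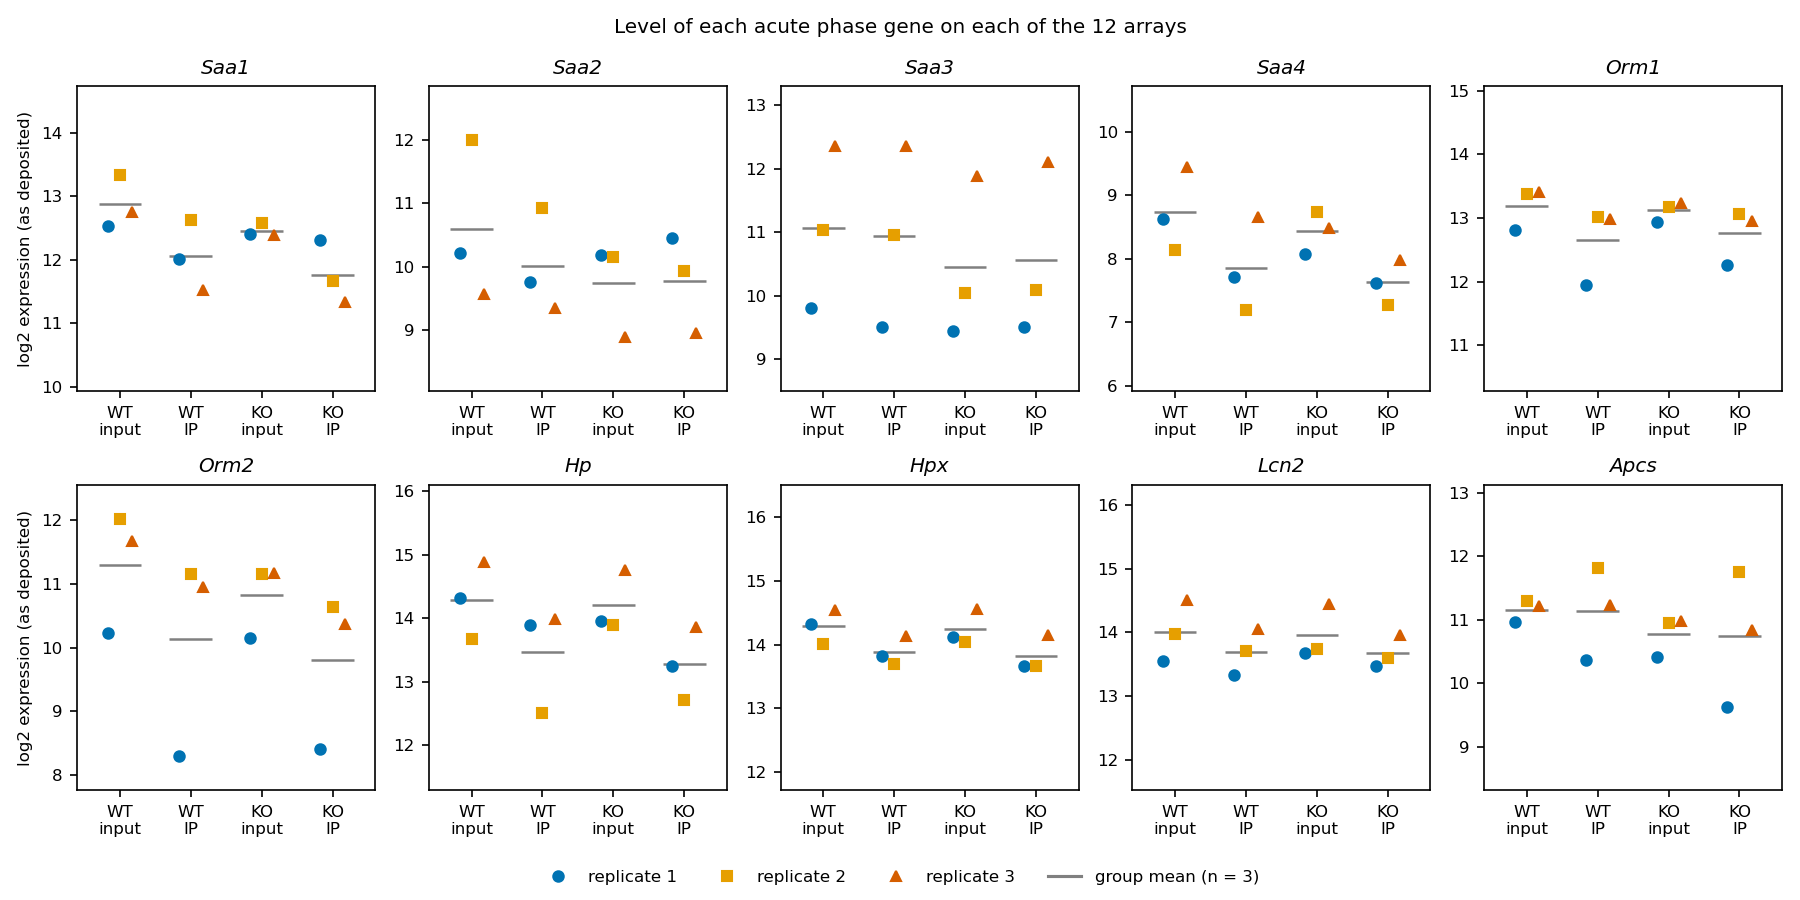
Level of each of the 10 genes on the log2 scale as deposited (y axis) in the 4 groups (x axis), with 1 point per array, the replicate number shown by symbol and colour, and a line at the mean of 3. The points of Saa3 separate by number, from 9.44 to 9.81 for number 1 up to 11.89 to 12.36 for number 3, while each IP point of Saa1 lies below the input of its own number.

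Orosomucoids, or alpha-1-acid glycoproteins, are carriers in plasma encoded by neighbouring copies. The window of Orm2 (250 bases before its start, RefSeq, GRCm38.p6, chr4:63362199-63362448, plus strand) is shown because Orm2 was one of the members called lower in IP than in input once the replicate number was a block, with its C/EBP match, from 120 to 113 bases before the start, in capitals.
Orm2: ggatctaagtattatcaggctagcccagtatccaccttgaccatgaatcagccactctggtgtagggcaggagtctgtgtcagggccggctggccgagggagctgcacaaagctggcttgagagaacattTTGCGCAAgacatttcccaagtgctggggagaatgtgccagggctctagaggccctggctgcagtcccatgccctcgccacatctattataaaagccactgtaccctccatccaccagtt
Orm2 was at 10.23, 12.02 and 11.67 in wild-type inputs and at 8.30, 11.16 and 10.95 in wild-type IPs. It was at 10.15, 11.16 and 11.18 in knockout inputs and at 8.40, 10.63 and 10.37 in knockout IPs. Number 1 was the lowest in every group, and each IP was below its own input, although IPs of numbers 2 and 3 overlapped the inputs of number 1. Orm1 was brighter and varied less, at 12.81, 13.37 and 13.41 in wild-type inputs, 11.94, 13.02 and 12.98 in wild-type IPs, 12.94, 13.18 and 13.24 in knockout inputs and 12.25, 13.06 and 12.95 in knockout IPs. Its number 1 was also lowest in every group, with inputs above IPs in all 6 preparations. Orm3, a further copy that is no member, had a like difference (−1.18 ± 0.77 SE in wild type and −0.97 ± 0.77 SE in knockout, limma adjusted p = 0.615 and 0.695), and the 3 copies may share probe signal.

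Hp, whose product haptoglobin carries free haemoglobin, was at 14.31, 13.68 and 14.89 in wild-type inputs and 13.89, 12.51 and 13.99 in wild-type IPs. In knockout inputs it was at 13.96, 13.90 and 14.75, and in knockout IPs at 13.25, 12.72 and 13.86. The knockout IPs were all below the knockout inputs, the wild-type groups overlapped, and each IP was below its own input. Hpx, whose product carries haem, stayed within 13.66 to 14.56 over the 12 arrays and was likewise lower in each IP than in its input. The group means of Hpx were 14.29 ± 0.27 in wild-type inputs, 13.88 ± 0.22 in wild-type IPs, 14.24 ± 0.28 in knockout inputs and 13.83 ± 0.28 in knockout IPs (SD, n = 3 each).

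Lcn2, which withholds iron from bacteria by binding their siderophores, read 13.55, 13.97 and 14.52 in wild-type inputs and 13.32, 13.70 and 14.05 in wild-type IPs. It read 13.67, 13.74 and 14.45 in knockout inputs and 13.47, 13.59 and 13.96 in knockout IPs. Number 1 was the lowest and number 3 the highest in all 4 groups, which overlapped. Lcn2 is also a neutrophil granule gene, and of the 8 neutrophil markers S100a8, S100a9, Mpo, Ltf, Camp and Ngp were below the filter level while Elane (5.67 to 6.78) and Cxcr2 (5.40 to 8.54) passed. The summed level of all 8 was 8.01 to 8.21 in wild-type inputs, 8.05 to 8.62 in wild-type IPs, 7.88 to 8.51 in knockout inputs and 8.74 to 9.38 in knockout IPs, and its part in the Lcn2 values was not tested. Apcs, a pentraxin, was at 10.97, 11.30 and 11.22 in wild-type inputs, 10.36, 11.82 and 11.24 in wild-type IPs, 10.42, 10.95 and 10.98 in knockout inputs and 9.63, 11.76 and 10.85 in knockout IPs. Its IPs were lower than input in number 1 and higher in number 2 of both genotypes.

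In 6 of the 10 genes (Saa1, Saa4, Orm2, Hp, Hpx and Lcn2) the group means ran down from wild-type input over knockout input and wild-type IP to knockout IP. In Saa2 and Saa3 both wild-type means came first and the knockout input was lowest. Neighbouring means in these orders differed by no more than the larger of their SDs, apart from 1 pair each in Saa1 and Hpx. For Hpx the pair was knockout inputs and wild-type IPs.

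The sum of squares of each gene over the 12 arrays was divided between replicate number, fraction (input or IP), genotype, the interaction of fraction and genotype, and the rest. The replicate number held the largest share in 8 of the 10 members, from 49.2% in Hpx to 92.6% in Saa3, against 47.5% for the median of all genes tested. Saa1 and Saa4 were the other two: fraction held 47.9% in Saa1 and 44.8% in Saa4, and number 17.2% and 30.1%. Fraction held more than the median gene's 12.9% in 7 of the 10 and was lowest in Saa2 (2.74%), Apcs (0.077%) and Saa3. Genotype held at most 11.1%, in Apcs, against 2.08% for the median gene. The numbers did not move the members alike: inputs of number 2 were highest for Saa2 (1.84 log2 units, or 3.58-fold, above number 3), inputs of number 3 for Hp (1.03 units, 2.04-fold, above number 2) and Lcn2 (0.87 units, 1.83-fold, above number 1). Among IPs, Orm2 in number 2 was 2.55 units, or 5.86-fold, above number 1. In such bulk samples fewer cells of a type and less RNA per cell cannot be told apart. The poly(A) controls also went with the number, at 5.04 and 5.05 in the inputs of number 1 and 8.51 to 8.81 in the others, and their part in these values was not tested.

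**Figure D2:**
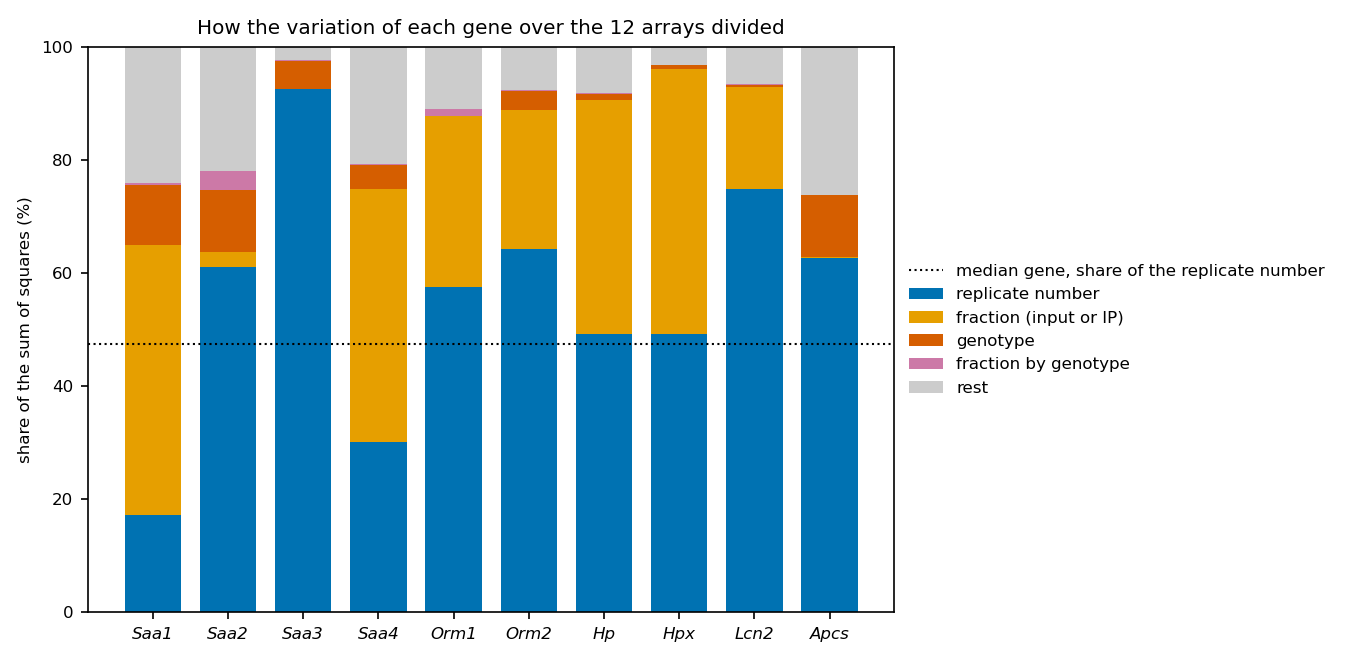
Share of each gene's sum of squares over the 12 arrays (y axis, %) that lay between replicate numbers, fractions, genotypes, their interaction and the rest, as stacked bars for the 10 genes (x axis), with a dotted line at the number's share in the median gene. The number's share is above the line of 47.5% in 8 genes, reaches 92.6% in Saa3 and is 17.2% in Saa1.

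To see which transcripts came down with the antibody, wild-type IPs were compared with wild-type inputs. All 10 members had a negative mean difference (9 after quantile normalization, with Apcs at 0.13), as did 58.4% of all genes tested, and 8 were negative in each of the 3 numbers, against 33.0%. The differences were −1.17 ± 0.80 (SE) log2 units for Orm2 (2.25-fold lower), −0.89 ± 0.43 for Saa4, −0.83 ± 0.48 for Hp (1.78-fold lower), −0.81 ± 0.36 for Saa1 (1.76-fold lower), −0.58 ± 0.65 for Saa2, −0.55 ± 0.36 for Orm1, −0.40 ± 0.28 for Hpx, −0.32 ± 0.34 for Lcn2, −0.13 ± 0.92 for Saa3 and −0.02 ± 0.50 for Apcs. The members' median was −0.56, beside −0.11 for all genes tested and −0.23 for the 4516 genes at least as bright on average as the dimmest member. Saa4 sets that cut, so these bright genes are not matched in level to the brighter members. In limma without a block none of the 10 passed an adjusted p of 0.05, which 0.105% of all genes did, with adjusted p from 0.456 (Saa1) to 0.993 (Apcs), and 1 member, Saa1, was under an unadjusted p of 0.05, as were 10.6% of all genes. With the replicate number as a block, Orm2 (−1.17 ± 0.31 SE, adjusted p = 0.037) and Hp (−0.83 ± 0.23 SE, adjusted p = 0.045) fell, and 7.86% of all genes were called lower. With each preparation as its own block no member passed (Orm2 0.059, Hp 0.058 and Saa4 0.061, each an adjusted p), and 4.61% of all genes were called lower. Leaving out 1 array in the fit without a block, which makes the numbers unequal between the groups, moved these sizes. Orm2 was then at −0.25 without wild-type IP 1, and Hp at −0.35 without wild-type IP 2 and −0.53 without wild-type input 3. Paired by number, the differences were −1.93, −0.85 and −0.72 for Orm2 and −0.42, −1.17 and −0.89 for Hp.

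The same comparison in the knockout, where the antibody has no target by design, gave these differences. Saa1 was at −0.69 ± 0.36 (SE), Saa4 at −0.81 ± 0.43, Orm1 at −0.36 ± 0.36, Orm2 at −1.03 ± 0.80, Hp at −0.93 ± 0.48, Hpx at −0.42 ± 0.28, Lcn2 at −0.28 ± 0.34 and Apcs at −0.04 ± 0.50, while Saa2 (0.04 ± 0.65) and Saa3 (0.11 ± 0.92) were positive. Thus 8 of 10 were negative (7 after quantile normalization, with Apcs at 0.16), beside 65.9% of all genes, and 7 were negative in each number, beside 35.3%. IPs lay below inputs without overlap for 3 members (Saa1, Saa4 and Hp), beside 10.1% of all genes, and in wild type for none, beside 7.59%. No member and no gene passed in limma without a block (0.00%), and at an unadjusted p of 0.05 no member did, beside 11.0% of all genes. Hp fell with the number as a block (adjusted p = 0.032, beside 9.45% of all genes called lower) and with the preparation as a block (adjusted p = 0.047, beside 5.28%). Hp was lower in all 3 knockout IPs, by 0.71, 1.18 and 0.89 log2 units for numbers 1, 2 and 3. Orm2 was at −0.32 without knockout IP 1, and Hp kept a difference of −1.22 to −0.65 whichever array was left out, both in the fit without a block. Paired by number, the Orm2 differences were −1.75, −0.53 and −0.80. The members' median was −0.39, beside −0.21 for all genes and −0.29 for the bright genes.

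Specific recovery was taken here as the wild-type difference between IP and input minus the knockout difference. It was within 0.24 log2 units of 0 for 9 of the 10 members and −0.62 ± 0.92 (SE) for Saa2. In the fit without a block, the 95% intervals ran from −0.86 to 0.89 for Hpx, the narrowest, so that a specific recovery above 1.85-fold lay outside it, and from −3.08 to 2.61 for Saa3, the widest. For Saa1 the interval was −1.24 to 0.99, for Orm1 −1.29 to 0.92, for Lcn2 −1.10 to 1.02, for Hp −1.38 to 1.57, for Saa4 −1.41 to 1.25, for Apcs −1.53 to 1.56, for Orm2 −2.62 to 2.33 and for Saa2 −2.63 to 1.40. These intervals include the spread between replicate numbers. With the number as a block the SE for Saa3 was 0.30, against 1.30 without, and the largest was 0.52, for Saa2. The Saa3 values by number were −0.36, −0.12 and −0.22. No member passed (limma adjusted p = 1.0 for all 10, none under an unadjusted p of 0.05, beside 0.0105% and 1.98% of all genes), and none with the number (0.284% of all genes) or the preparation (0.0211%) as a block. Of the 10 estimates 7 were negative (9 after quantile normalization, with Hpx and Apcs turned), beside 44.2% of all genes, and this count fell to 3 without wild-type input 3, without knockout input 1 or without knockout IP 3, and to 4 without wild-type IP 1.

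**Figure D3:**
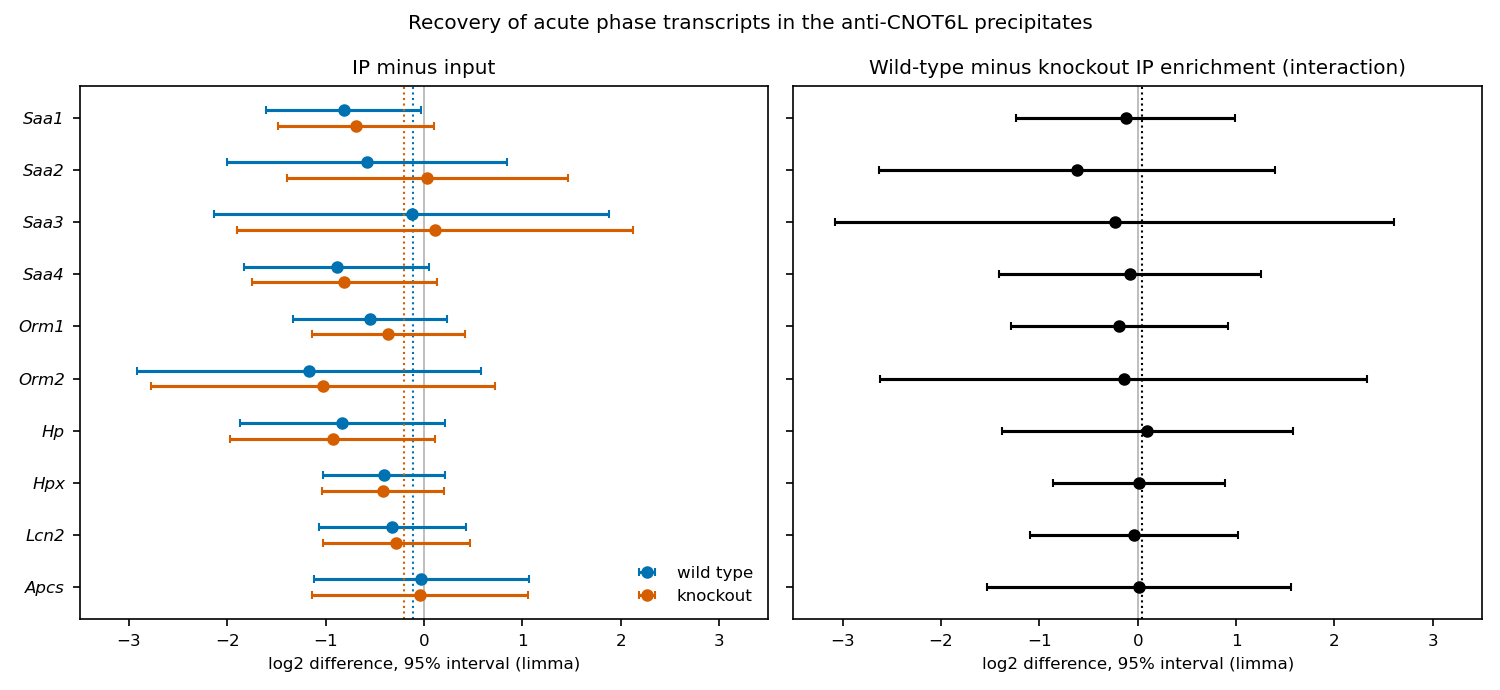
Left, IP minus input in wild-type and knockout cells, and right, the wild-type minus the knockout difference, in log2 units (x axis) for the 10 genes (y axis), each point a limma estimate with its 95% interval (fit without a block) and dotted lines at the median of all genes tested. Orm2 (−1.17 and −1.03) and Hp (−0.83 and −0.93) lie to the left in both genotypes, and every interval on the right spans 0.

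Direct comparison of the immunoprecipitates gave wild-type levels above knockout levels for 9 of the 10 members, beside 54.1% of all genes. The largest differences were 0.39 ± 0.50 (SE) for Apcs, 0.38 ± 0.92 for Saa3 and 0.33 ± 0.80 for Orm2, and Orm1 was at −0.11 ± 0.36. This comparison is not corrected for input, and all 10 members also had a lower mean in knockout than in wild-type inputs. There Apcs, Saa3 and Orm2 were at −0.38, −0.61 and −0.48, knockout minus wild type. None passed in limma without a block (adjusted p = 1.0 for all 10, and none under an unadjusted p of 0.05, beside 0.253% and 5.39% of all genes). With the number as a block none passed an adjusted p of 0.05 either, beside 2.45% of all genes. Only Saa3 and Apcs were higher in wild type for each number, beside 20.1% of all genes, and for Saa3 the number 1 difference was 0.0035. In the fit without a block, the count of members higher in wild type dropped to 3 without wild-type IP 3, and to 4 without knockout IP 1. Either omission leaves the replicate numbers unequal between the groups, and the part of this in the counts was not tested.

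Between inputs, which compare the hepatocytes themselves, all 10 members had a lower mean in the knockout, beside 46.1% of all genes. The differences were −0.85 ± 0.65 (SE) for Saa2 (1.80-fold lower), −0.61 ± 0.92 for Saa3 (1.53-fold), −0.48 ± 0.80 for Orm2 (1.39-fold), −0.42 ± 0.36 for Saa1 (1.33-fold), −0.38 ± 0.50 for Apcs and −0.30 ± 0.43 for Saa4, and those of Hp, Orm1, Lcn2 and Hpx were between −0.09 and −0.05. For Saa1 and Apcs the difference was slightly above the larger SD of the groups compared and for the other 8 below it, and none passed in limma without a block (adjusted p = 1.0 for all 10, no member under an unadjusted p of 0.05, beside 0.00% and 0.0527% of all genes). With the number as a block the SE was 0.21 for Saa3 and 0.37 for Saa2 (limma unadjusted p = 0.016 and 0.044). After adjustment no member passed with this block, and 0.00% of all genes did. Number by number, 5 members (Saa1, Saa2, Saa3, Orm2 and Apcs) were lower in each of the 3 knockout inputs, beside 13.0% of all genes. The Saa2 differences were −0.04, −1.84 and −0.67 for numbers 1, 2 and 3, and the Saa3 differences −0.37, −0.99 and −0.48. The members' median was −0.34, beside 0.02 for all genes and 0.03 for the bright genes. In the fit without a block, the members lower in the knockout numbered 4 without wild-type input 3 and 6 without knockout input 1. Leaving out 1 array makes the replicate numbers unequal between the groups, and the part of this in the counts was not tested. The libraries labelled knockout did not have less Cnot6l signal, as given above.

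**Figure D4:**
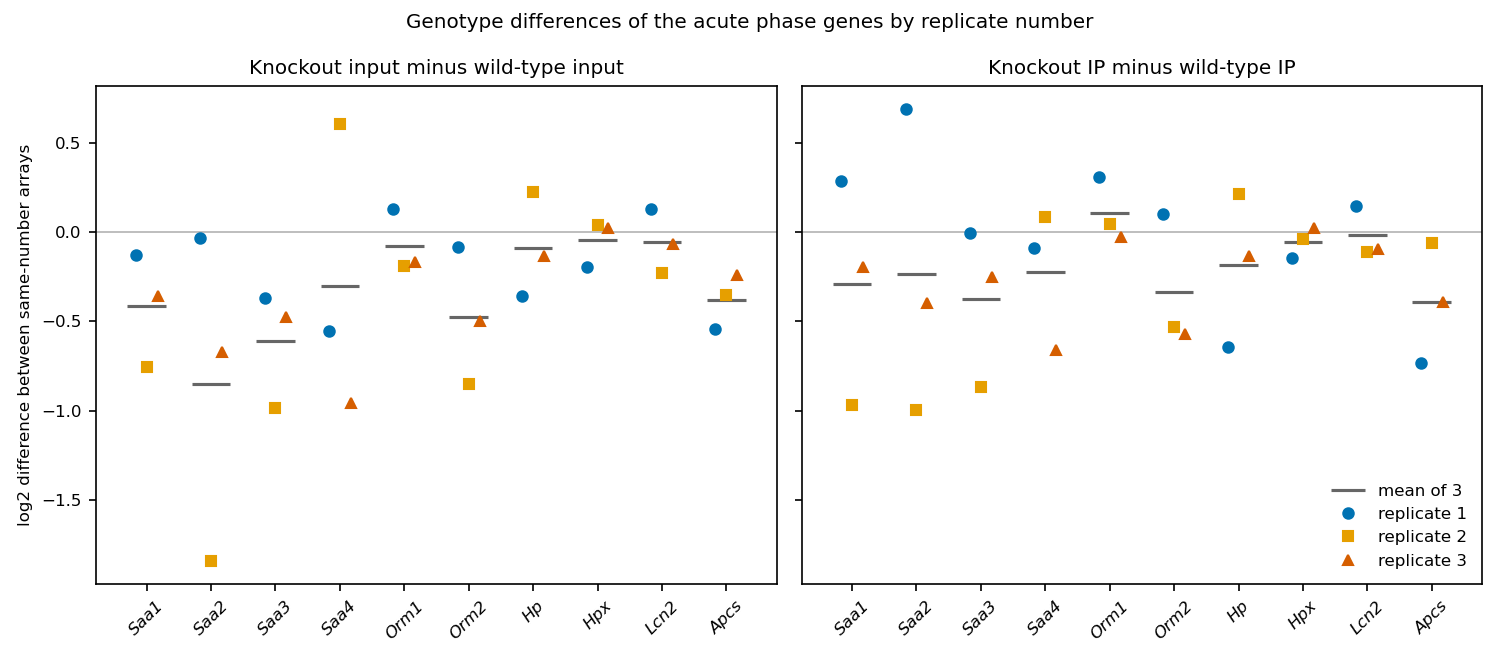
Difference between the genotypes for arrays of the same replicate number, in log2 units (y axis), for the 10 genes (x axis), in inputs (left) and in IPs (right), with a line at the mean of 3. In inputs, all 3 points of Saa1, Saa2, Saa3, Orm2 and Apcs lie on the side of a lower knockout level, and the mean of Saa2 is the farthest from 0.

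The other genes of the response were taken from 4 lists. Of 20 tested further acute phase proteins that rise in inflammation, none passed in limma in any of the 5 comparisons, and their median IP difference was −0.14 in wild type and −0.30 in knockout. With the number as a block 2 of the 20 fell in wild type, beside 7.86% of all genes: Serpina3n, a serine protease inhibitor (−1.01 ± 0.20 SE, adjusted p = 0.014), and complement factor B, Cfb (−0.79 ± 0.18 SE, adjusted p = 0.024), which is named because it was the other call. Both calls held with the preparation as a block (adjusted p = 0.024 and 0.043). Serpina3n also fell in knockout with the number block (−0.73 ± 0.20 SE, adjusted p = 0.040), but not with the preparation as a block. Lrg1, a leucine-rich plasma glycoprotein, was at −1.13 ± 0.48 (SE) without a block (limma adjusted p = 0.431, and 0.053 with the number block). In the knockout the largest differences beside Orm3 were −0.90 ± 0.99 (SE) for Steap4, a metalloreductase, and −0.75 ± 1.32 for Hamp. Hamp, which encodes the iron hormone hepcidin, was 1.31, 2.21 and 1.59 log2 units higher in the wild-type than in the knockout IP of the same number, with a mean of 1.70 ± 1.32 (SE) that did not pass (limma adjusted p = 1.0, and 0.093 with the block). The interaction was 1.32 ± 1.87 (SE) for Hamp, 0.75 ± 1.02 for its copy Hamp2 and −0.48 ± 0.68 for Lrg1, and between IPs Hamp2 was at 0.61 ± 0.72 and Steap4 at 0.36 ± 0.99. Between inputs the largest differences, knockout minus wild type, were −0.52 ± 0.70 (SE) for Cfb, −0.38 ± 1.32 for Hamp and −0.36 ± 0.30 for Itih4. None of these passed. By number the Hamp difference between inputs was 1.30, −1.85 and −0.59. Of 8 plasma proteins that fall in inflammation none passed either, and their median IP difference was −0.42 in both genotypes. Fetub (fetuin-B) fell in wild type with the number as a block (−1.17 ± 0.18 SE, adjusted p = 0.007) and in knockout (−0.76 ± 0.18 SE, adjusted p = 0.030), and Trf (transferrin) in knockout (−0.72 ± 0.17 SE, adjusted p = 0.029). With the number block 7.86% of all genes were called lower in wild type and 9.45% in knockout. With the preparation as a block the wild-type call of Fetub held (adjusted p = 0.019), and the knockout calls did not (0.055 and 0.053, adjusted p). With that block 4.61% of all genes were called lower in wild type and 5.28% in knockout. Ahsg (fetuin-A) was at −0.58 ± 0.42 (SE) in wild type and −0.70 ± 0.42 in knockout, and Trf at −0.55 ± 0.31 in wild type, none of which passed. In the other 3 comparisons the 3 largest differences of this list, among Apom, Fetub, Trf, Rbp4 and Ttr, ran from −0.45 (Apom, interaction) to 0.17 (Trf, interaction).

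Among 15 cytokine receptors and signal transducers, Socs3, the feedback inhibitor of interleukin-6 signalling, was the 1 gene that passed. Its mean was 6.36 in wild-type inputs and 9.16 in wild-type IPs, a rise of 2.80 ± 0.37 (SE) log2 units (limma adjusted p = 0.012) against 0.59 ± 0.37 in knockout (adjusted p = 0.600). Wild-type IPs exceeded knockout IPs by 2.20 ± 0.37 (SE) units (adjusted p = 0.037). Of all genes, 0.105% passed in wild-type IP against input and 0.253% between IPs. The difference between the genotypes' IP recoveries, 2.21 ± 0.53 (SE), did not pass without a block (limma adjusted p = 0.782), passed once the number was a block (adjusted p = 0.027) and missed with the preparation as a block (adjusted p = 0.080). For this difference 0.284% of all genes passed with the number block and 0.0211% with the preparation block. The next largest differences of this list did not pass: Jak2 at 0.75 ± 0.33 (SE) and Lifr at −0.54 ± 0.34 in wild-type IP against input, Traf6 at −0.45 ± 0.37 and Jak1 at −0.43 ± 0.27 in the knockout, and Il6ra at 0.49 ± 0.63 between IPs. Between inputs Lifr, Osmr and Jak1 differed most, at −0.34, 0.26 and 0.21. Of the 9 transcription factors none passed without a block. When the number was blocked, Cebpd, a C/EBP factor induced in the acute phase, rose in wild-type IPs over inputs (1.46 ± 0.25 SE, adjusted p = 0.008) and was higher in wild-type than knockout IPs (1.98 ± 0.25 SE, adjusted p = 0.003), as was Nfkbiz, an inducible IκB family member (1.31 ± 0.24 SE, adjusted p = 0.019). Calls in either direction then covered 11.7% of all genes in wild-type IP against input and 2.45% between IPs. The Cebpd interaction was at the threshold with the number as a block (2.02 ± 0.35 SE, adjusted p = 0.0499) and missed it with the preparation as a block (adjusted p = 0.161). Cebpb was 0.89 ± 0.38 (SE) higher in wild-type than knockout IPs and did not pass (limma adjusted p = 0.839), and in knockout IPs Cebpb, Nfkbiz and Cebpa were at −0.68, −0.64 and −0.60 against input, also without passing. Rela was at −0.54 ± 0.44 (SE) in wild-type IP against input, and between inputs the largest differences were 0.16 for Nfkb2, 0.09 for Foxa2 and −0.09 for Hnf4a.

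The genes whose level most resembled each member's over the 12 arrays were found by Pearson's r among 9496 genes, as a description of arrays that share preparations and fractions. For the serum amyloid A genes they were, with r in brackets, Eno3 (0.884), Mtmr2 (0.878) and Mkrn1 (0.872) for Saa1, Vwce (0.909), Egln3 (0.894) and Fabp1 (0.885) for Saa2, Msantd2 (0.965), Akap12 (0.963) and Nuak2 (0.961) for Saa3 and Gas6 (0.957), Foxn3 (0.930) and Edem2 (0.911) for Saa4. For the orosomucoids they were Hnrnpl (0.976), Alg14 (0.972) and Orm2 (0.968) for Orm1 and Ankrd33b (0.974), Orm1 (0.968) and Afm (0.962) for Orm2. For the haemoglobin and haem carriers they were Emc10 (0.983), Tecr (0.979) and Jmjd8 (0.973) for Hp and Itm2b (0.979), Crlf2 (0.977) and Cd81 (0.974) for Hpx. The remaining ones were Egfr (0.973), Igsf11 (0.967) and Slc30a7 (0.954) for Lcn2 and Hsd17b7 (0.929), Cks1b (0.915) and Zbtb5 (0.905) for Apcs. Among the members themselves, Orm1 and Orm2 went together most (r = 0.968), so that each was among the 3 genes most like the other. Hp and Hpx were at 0.922, Saa4 and Hp at 0.877, Saa3 and Lcn2 at 0.863 and Saa1 and Saa2 at 0.712. Saa2 ran the other way to Hp (r = −0.474) and Saa3 (r = −0.402), all over 12 arrays.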

How the data were processed

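Total and immunoprecipitated RNA of 12 samples was labelled as biotinylated cRNA from 10 µg and hybridised to 1 array each, per the labels' protocols. The deposited table of the authors holds 16539 probe sets as log2 values, inferred from their range; background correction, normalization and probe grouping: not given in the sources used here. Its 15780 named probe sets (64 were controls, 695 unnamed) carry gene numbers as IDs, and 15752 names matched RefSeq. No 2 arrays held identical values. Values were used as deposited. Genes with a mean at or above the 40th percentile (5.57) were fitted together with limma 3.58.1 in R 4.3.3 (4 group means, 12 arrays, Benjamini-Hochberg over 9496 genes). The members and gene lists were chosen with earlier results of these data known. The named genes were all 10 members, and from each pathway list the 3 with the largest difference per comparison; for each member the 3 genes of highest Pearson's r were named. Arrays with the same replicate number in their titles moved together: over 18 same-number pairs, deviations from group means correlated at 0.453 to 0.936. Across numbers they correlated at −0.711 to 0.0685, values that taking deviations from a mean of 3 by itself pushes below 0. The 18 pairs include both genotypes, so they show an effect of the number and not that an input and an IP share a preparation. Blocks for the number or the preparation were fitted too, along with quantile normalization, other filters and priors, and leaving out each array (in the fit without a block). Promoter motifs were searched on both strands, and windows were aligned with Biopython 1.88.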

Additional observations from a re-analysis of the deposited data

How the results depend on the processing

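Of the 50 differences of members in the report, all kept their sign and call without the filter on dim genes, with a stricter filter (at least 7.27) and with an intensity-dependent or robust prior. The replicate number as a block added the calls of 2 members in wild-type IP against input (Orm2, Hp) and 1 in the knockout (Hp), and the preparation as a block added 1 (Hp in the knockout); the blocks changed no other call of a member. Quantile normalization, which moved the median of all genes by 0.06 and 0.16 in the IP comparisons of wild type and knockout, turned Apcs to 0.13 (wild type) and 0.16 (knockout), and the interactions of Hpx to −0.020 and of Apcs to −0.029. The count of genes called in wild-type IP against input was 10, and became 16 after quantile normalization, 1108 with the number block, 667 with the preparation block and 1 with only the arrays compared. In the knockout it was 0, and became 52 without the filter, 1073 with the number block and 570 with the preparation block. For the interaction it was 1, and became 27 with the number block and 2 with the preparation block. Between IPs it was 24, and became 233 with the number block and 0 with only the arrays compared. Leaving out each array in turn, which unbalances the numbers between groups, gave 2 to 14 genes for wild-type IP against input, 0 to 2 for the knockout, 0 to 4 for the interaction and 4 to 16 between IPs, and called no member. Members with a negative difference then numbered 3 to 10 for the interaction, 1 to 7 for wild-type against knockout IPs and 4 to 10 for knockout against wild-type inputs. Log2 differences that changed sign in this way ran as follows: For wild-type IP minus input, Saa2 −1.09 to 0.12, Saa3 −0.83 to 0.59 and Apcs −0.36 to 0.36. For knockout IP minus input, Saa2 −0.39 to 0.45, Saa3 −0.66 to 0.82 and Apcs −0.55 to 0.52. For the interaction, Saa1 −0.41 to 0.15, Saa2 −1.13 to 0.084, Saa3 −0.95 to 0.53, Saa4 −0.48 to 0.28, Orm1 −0.44 to 0.17, Orm2 −0.84 to 0.78, Hp −0.21 to 0.58, Hpx −0.15 to 0.17, Lcn2 −0.28 to 0.21 and Apcs −0.54 to 0.52. For wild-type minus knockout IP, Saa2 −0.22 to 0.57, Saa3 −0.33 to 1.15, Saa4 −0.18 to 0.55, Orm1 −0.36 to 0.24, Orm2 −0.37 to 1.25, Hp −0.090 to 0.67, Hpx −0.068 to 0.22, Lcn2 −0.16 to 0.20 and Apcs −0.16 to 0.90. For knockout minus wild-type input, Saa3 −1.32 to 0.035, Saa4 −0.60 to 0.054, Orm1 −0.27 to 0.030, Hp −0.40 to 0.21, Hpx −0.21 to 0.082 and Lcn2 −0.30 to 0.19. None of these passed the test, and the cause was not tested. Depth cannot be read from arrays: 3 arrays a group and the top of the scale limit what can be seen.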

Other observations

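The 7 hepatocyte markers differed unequally between replicate numbers in the inputs. Cyp2e1, a cytochrome P450 of the liver lobule's centre, averaged 10.44, 13.06 and 9.10 in the inputs of numbers 1, 2 and 3, Tat, tyrosine aminotransferase, 7.54, 8.57 and 5.31, and Asgr1, a subunit of the asialoglycoprotein receptor, 9.38, 10.44 and 8.16. Tdo2, tryptophan dioxygenase, averaged 10.22, 10.04 and 9.19. The carrier proteins varied less, with Alb at 14.88, 15.02 and 14.72, Apoa1 at 13.88, 14.07 and 13.89 and Ttr at 13.64, 13.55 and 13.61. The 3′ probe set of Gapdh exceeded the 5′ one by 0.85 to 1.95 log2 units more in each IP than in its input.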
